A study of Mus musculus with 15 samples.

Results

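The choroid plexus marker genes are 10 genes whose rows were taken by symbol from every expression table: Ttr, Kl, Clic6, Folr1, Prlr, Sostdc1, Aqp1, Slc4a5, Otx2 and Enpp2. All 10 were among the 25080 genes listed, and 6 of them (Ttr, Clic6, Prlr, Sostdc1, Otx2 and Enpp2) were among the 13471 genes that passed the filter on low values (1 TPM or more in at least 3 libraries, TPM being a relative abundance corrected for transcript length). Kl, Folr1, Aqp1 and Slc4a5 did not pass it and were described without a test in the main comparisons. The samples were bulk RNA-seq libraries of dissected mouse thalamus, made from total RNA after removal of ribosomal RNA with a kit that keeps strand. The mice were 2 to 4 months old, and Maged1 was deleted conditionally (cKO) by a Cre recombinase under the vGluT2 promoter, which is active in excitatory neurons. All animals received saline for 3 days and then either cocaine at 20 mg/kg, injected intraperitoneally, or saline for 5 days. Saline was given to 4 controls and 4 cKO mice, cocaine to 4 mice labelled control and 2 labelled cKO, which makes 14 libraries, and 1 further cKO cocaine sample was not analysed here. The sample titles call the controls Maged1 WT and the genotype tag calls them Maged1 Loxp. The labels call the samples independent but do not say which shared a litter, a dissection or a preparation, and p-values measure only the spread between these samples.

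Levels below are TPM divided by a trimmed-mean factor of each library (scaled TPM), which ranged from 1.07 to 1.21 in the 8 saline libraries and from 0.807 to 0.947 in the 6 cocaine libraries. With saline, Maged1 was 150 to 166 scaled TPM in controls and 64.5 to 78.0 in cKO. With cocaine it ran from 58.5 to 87.9 where the label says control and was 152 and 174 where it says cKO, which goes against both labels. The cocaine libraries are therefore named throughout by their labels, and no direction between genotypes after cocaine is read as an effect of Maged1. Cocaine against saline within a label also compares libraries that differ in Maged1, and so does the difference between labels in that comparison. The genotype tag of 4 saline libraries (control replicates 3 and 4, cKO replicates 1 and 2) names the other genotype than the title, whereas Maged1 in them lay within the range of the title. Read numbers were not given with the TPM values, so the depth behind a low value is unknown.

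The choroid plexus is a sheet of ciliated epithelium over a vascular stroma that hangs in the brain ventricles and secretes cerebrospinal fluid. It borders the thalamus along the roof of the third ventricle and in the lateral ventricles, and is not a part of it. Its epithelium makes transthyretin (Ttr), the carrier of thyroxine and of retinol-binding protein, in very large amounts, and so the gene is often read as a sign of choroid tissue in a brain dissection. In bulk tissue, fewer cells of a type and less RNA per cell cannot be told apart.

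The level of the 10 genes varied between libraries of the same group, with control saline replicate 1 far above the rest for most of them. This library had the highest level of all 14 for 10 of 10 members, against 8.73% of all tested genes for which it was the highest. It lay at least 1 log2 unit above every other library for 8 of 10 members, as against 0.328% of the 20427 genes above 0 in any library (67 genes). The exceptions were Prlr and Otx2, for which it was 0.71 and 0.39 log2 units above the next library. No other library was that far above the rest for any member, although each had between 4 and 37 such genes among all genes. The summed level of the 10 genes was 1762 scaled TPM in control saline replicate 1 and 51.0 to 107.3 in the other 13 libraries.

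**Figure D1:**
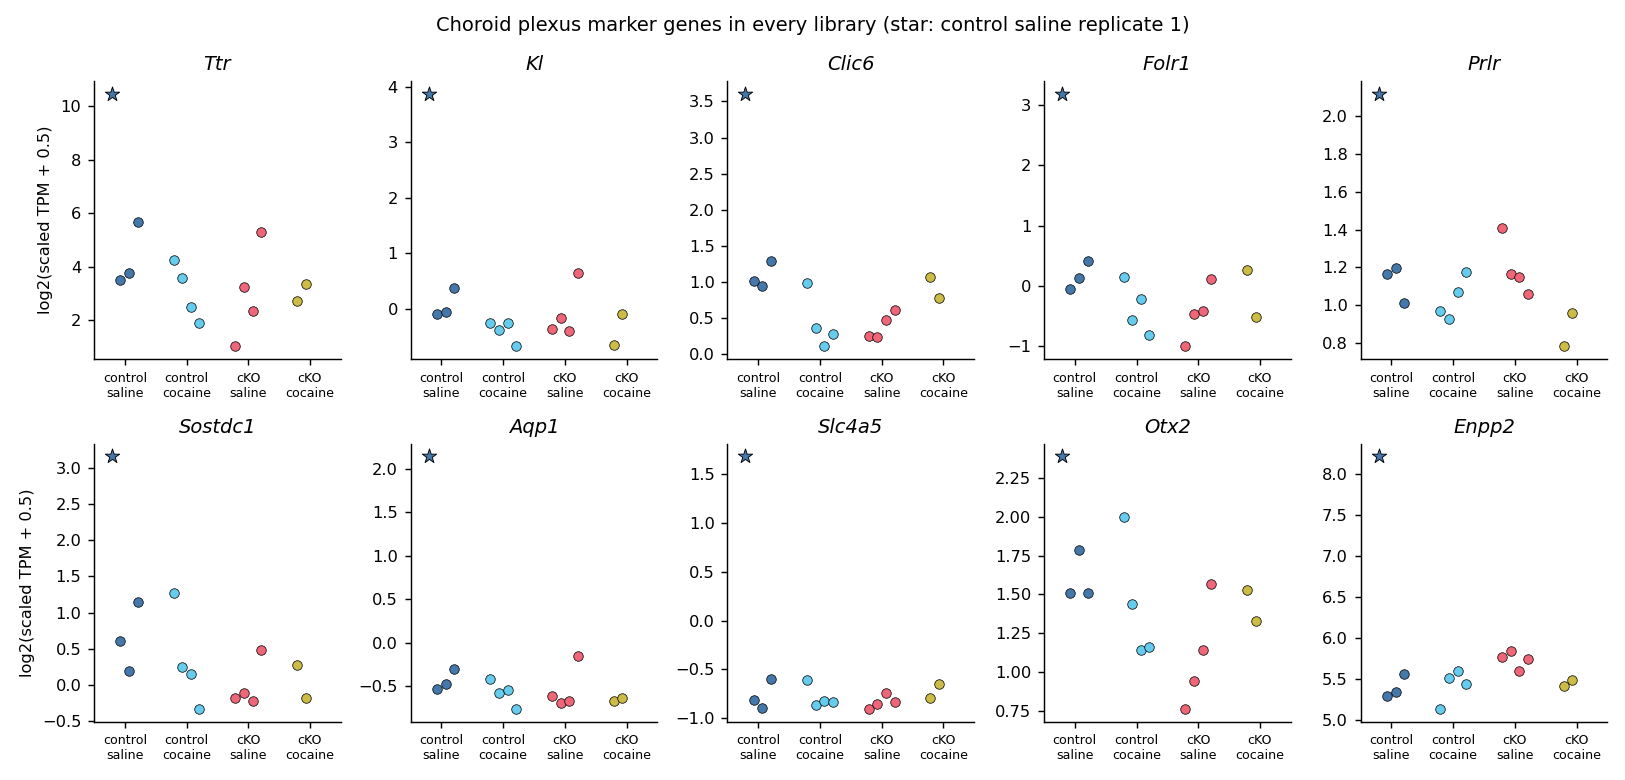
Level of each of the 10 choroid plexus marker genes, log2(scaled TPM + 0.5), by group, with 1 point for each library and a star for control saline replicate 1. The star is the highest point in all 10 panels, and its distance to the others is largest for Ttr and smallest for Otx2 and Prlr.

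Among the secreted carriers and hormones, Ttr was 1406 scaled TPM in control saline replicate 1 and 10.9, 13.3 and 50.9 in replicates 2 to 4. The libraries labelled control cocaine held 18.7, 11.4, 5.20 and 3.21, those of cKO saline 1.54, 9.09, 4.60 and 39.3, and the pair labelled cKO cocaine 6.10 and 9.89. The first value was 142 times the median of the other 13 libraries and 27.6 times the highest of them. Even among those 13, Ttr spanned a 33.0-fold range, the widest of the 9 members whose lowest value was above 0. In them control saline ran from 10.9 to 50.9 and the pair labelled cKO cocaine from 6.10 to 9.89, and every other pair of groups overlapped. How many of all genes set these groups apart in the same way was not counted.

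Kl encodes klotho, a membrane protein that is shed into the fluid and serves as a co-receptor for fibroblast growth factor signals. It was 14.2 scaled TPM in control saline replicate 1 and 0.441, 0.464 and 0.803 in the other control saline libraries. It was 0.274, 0.392, 0.260 and 1.05 in cKO saline. Under cocaine it was 0.341, 0.269, 0.338 and 0.124 with the control label, and 0.132 and 0.437 with the cKO label. Kl was thus 41.7 times the median of the others in the high library, and the next 2 libraries, cKO saline replicate 4 and control saline replicate 4, were the same that came next for Ttr, in the other order.

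Sostdc1 encodes a secreted antagonist of bone morphogenetic protein and Wnt signals. It was 8.41 scaled TPM in control saline replicate 1 and 1.02, 0.647 and 1.72 in replicates 2 to 4, and 0.386, 0.429, 0.356 and 0.904 in cKO saline. Under cocaine it was 1.92, 0.693, 0.612 and 0.295 with the control label, and 0.710 and 0.384 with the cKO label. Here control cocaine replicate 1 came next after the high library, which was 13.01 times the median of the other 13.

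Enpp2 encodes autotaxin, the secreted enzyme that makes lysophosphatidic acid, and is also made by oligodendrocytes. It was 297 scaled TPM in control saline replicate 1 and 38.6, 40.0 and 46.7 in replicates 2 to 4. In the 10 libraries of the other groups it ran from 34.5 to 57.0, so that its range among the 13 was 1.65-fold, the narrowest of the members. The order of the groups among these 13 was also different from that of Ttr, with 47.9 to 57.0 in cKO saline and 38.6 to 46.7 in control saline. These ranges are apart only without the high library, which was left out after its values were seen. Between these 2 groups without it, 14.2% of all genes had an unadjusted p under 0.05 (limma).

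Among the transporters and channels, Clic6, a chloride intracellular channel protein, was 11.7 scaled TPM in control saline replicate 1, then 1.52, 1.43 and 1.95 in the other control saline libraries. In cKO saline it was 0.698, 0.679, 0.889 and 1.03. Under cocaine it was 1.48, 0.788, 0.580 and 0.711 with the control label, and 1.61 and 1.22 with the cKO label. Control saline did not overlap with cKO saline, with or without the high library, and overlapped with control cocaine only through replicate 1 of the latter. The share of all genes without such overlap was not counted. In cKO against control in saline, 16.7% of all genes had an unadjusted p under 0.05 (limma).

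Folr1, the folate receptor that carries folate across the epithelium, was 8.61 scaled TPM in the high library and at most 0.827 elsewhere, with a listed value of 0 in cKO saline replicate 1. Aqp1, the water channel of the apical membrane, was 3.93 against 0.0894 to 0.398. Slc4a5, a sodium bicarbonate cotransporter, was 2.71 against 0.0335 to 0.162. These 3 genes reached 1 TPM in 1 library each and stood 24.1, 22.8 and 42.2 times above the median of the other 13.

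The receptor Prlr, which binds prolactin, and the homeodomain factor Otx2, which is needed for the choroid plexus to form, differed least. Prlr was 3.84 scaled TPM in control saline replicate 1, 2.40 times the median of the others, and 1.22 to 2.15 elsewhere, highest in cKO saline replicate 1. Otx2 was 4.74 in control saline replicate 1, 2.14 times the median, and 2.35, 2.95 and 2.35 in replicates 2 to 4. In cKO saline it was 1.19, 1.42, 1.70 and 2.46. Under cocaine it was 3.50, 2.21, 1.71 and 1.73 with the control label, and 2.39 and 2.01 with the cKO label. Both genes were above 1 TPM in all 14 libraries, as were Ttr and Enpp2.

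Counted as scaled TPM above the median of the other 13 libraries, the excess of the 10 members in control saline replicate 1 added up to 1700, of which Ttr made 82.1% and Enpp2 14.8%. The remaining 8 members made less than 1% each, Kl with 0.815% the most. On the log2 scale the excess was spread over more genes, with 7.08 for Ttr, 4.13 for Kl and 2.51 to 3.41 for Clic6, Folr1, Sostdc1, Aqp1, Slc4a5 and Enpp2.

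Start-site windows (250 bases before to 50 bases after the start of transcription, RefSeq, GRCm38.p6) are shown for 4 members, all highest in control saline replicate 1. Over the other 13 libraries r between these 4 ran from 0.23 (Kl with Slc4a5) to 0.88 (Kl with Aqp1). Windows were taken for 5 of the 10 members, 10 windows in all. The windows of Kl (chr5:150952357-150952656, plus strand), Aqp1 (chr6:55336049-55336348, plus strand) and Slc4a5 (chr6:83237125-83237424, plus strand) belong to 3 of the genes that stood far above the rest in the high library, and the fourth is 1 of the 4 windows of Otx2 (chr14:48665060-48665359, minus strand). Each is written 5′ to 3′ on the strand of the gene, and capitals mark the letters TAATCC or their reverse complement GGATTA, the core that Otx-type homeodomains bind.
Kl: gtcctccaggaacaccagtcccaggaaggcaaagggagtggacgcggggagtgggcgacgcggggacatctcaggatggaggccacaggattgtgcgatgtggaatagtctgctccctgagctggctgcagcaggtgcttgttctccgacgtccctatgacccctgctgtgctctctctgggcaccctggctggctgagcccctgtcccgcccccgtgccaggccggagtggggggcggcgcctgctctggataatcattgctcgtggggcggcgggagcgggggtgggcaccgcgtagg
Aqp1: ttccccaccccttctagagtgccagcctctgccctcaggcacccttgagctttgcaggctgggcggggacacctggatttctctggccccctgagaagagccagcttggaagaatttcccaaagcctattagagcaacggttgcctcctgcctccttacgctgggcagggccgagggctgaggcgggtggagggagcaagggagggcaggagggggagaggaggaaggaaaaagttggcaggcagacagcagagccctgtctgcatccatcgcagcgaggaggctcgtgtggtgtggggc
Slc4a5: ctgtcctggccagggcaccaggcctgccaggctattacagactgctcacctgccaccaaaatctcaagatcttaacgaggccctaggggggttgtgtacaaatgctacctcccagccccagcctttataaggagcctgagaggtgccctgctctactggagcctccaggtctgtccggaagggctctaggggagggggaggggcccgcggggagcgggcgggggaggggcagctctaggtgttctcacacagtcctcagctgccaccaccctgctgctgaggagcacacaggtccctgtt
Otx2: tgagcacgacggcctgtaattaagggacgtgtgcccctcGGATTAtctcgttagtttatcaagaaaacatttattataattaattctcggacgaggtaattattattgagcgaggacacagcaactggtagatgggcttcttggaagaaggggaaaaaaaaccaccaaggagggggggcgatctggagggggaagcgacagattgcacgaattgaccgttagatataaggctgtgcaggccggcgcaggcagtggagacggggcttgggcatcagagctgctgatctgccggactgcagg
The letters occurred in 1 of the 10 member windows, that of Otx2 shown here, where the match begins 211 bases before the start, and in 7.06% of all 32851 windows. The windows of Kl, Aqp1 and Slc4a5 were rich in G and C (67.3%, 62.7% and 62.7%), and that of Otx2 held 51.0%. A match of letters is a description of the window and not evidence of binding.

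Genes outside the list placed control saline replicate 1 in the same way. Of 27 further choroid plexus epithelium genes, 27 were highest in this library, and 13 were at least 1 log2 unit above every other library. The smallest leads were 0.04 (Wfikkn2), 0.05 (Cox8b) and 0.06 (Lmx1a) log2 units, and 12 of the 27 passed the filter. This list and those below were chosen with earlier results of these data known, so their counts are not a separate test. Kcnj13, a potassium channel, was 5.01 scaled TPM there and at most 0.356 elsewhere, and Kcne2, a potassium channel subunit, was 4.80 and at most 0.203. Among the genes of meninges, fibroblasts and choroid stroma 12 of 12 were highest and 4 of 12 passed the same distance, Igf2 with 24.1 scaled TPM against at most 7.65. Of the carrier, receptor and ion transport partners of the members, 13 of 31 were highest.

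Other lists did not set the library apart to the same degree. Of 14 ependymal and motile cilia genes 2 were highest in it, and of 9 habenula and 9 oligodendrocyte genes none was. The list of endothelial and mural genes had 3 of 11 highest, with a median difference of 0.18 log2 units from the median of the other 13, the border macrophages 5 of 7 (0.43), the hypothalamic genes 1 of 10 (0.95), the hippocampal genes 0 of 7 (0.02) and the thalamic neuron genes 0 of 9 (-0.19). The median difference was 2.84 over the 10 members, 1.51 over the further choroid genes, 1.22 over the stromal genes and -0.01 over all tested genes.

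**Figure D2:**
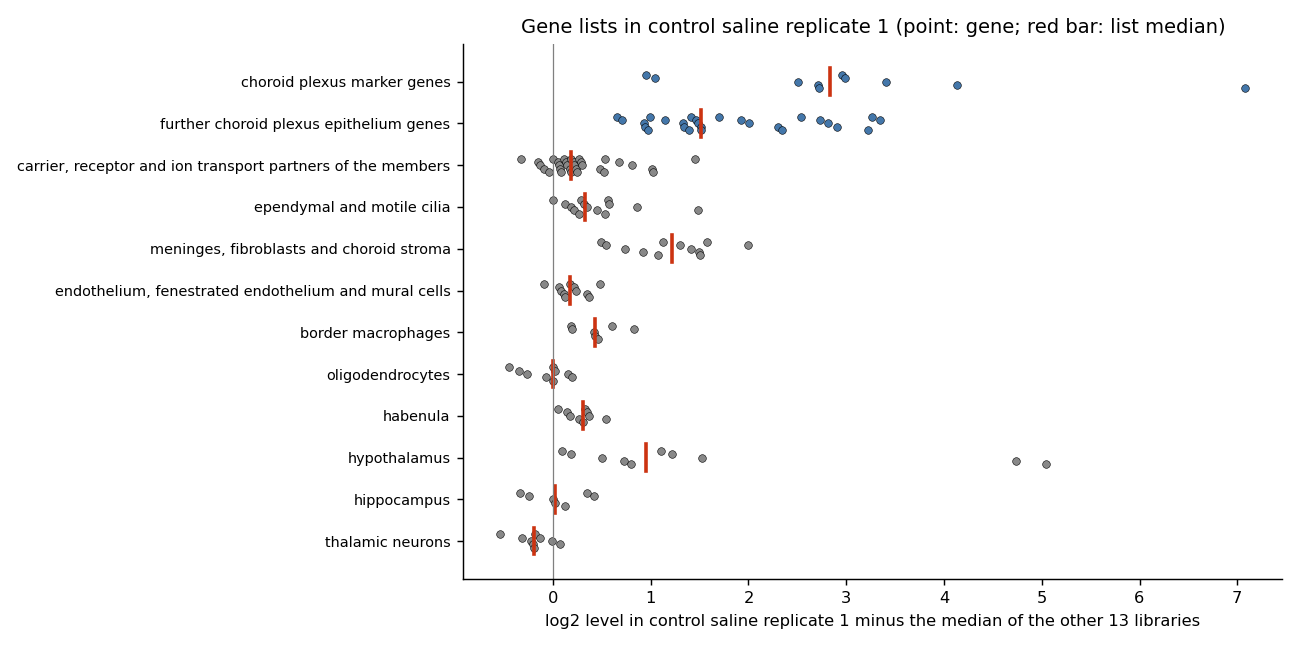
Difference between control saline replicate 1 and the median of the other 13 libraries, in log2 units, with 1 point for each gene of 12 lists and a red bar at the list median. The median is 2.84 for the choroid plexus marker genes, 1.51 for further choroid plexus epithelium genes and 1.22 for the stromal genes, and under 1 for the other 9 lists.

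The joint level of the members was summarized as a score, the mean over the 10 genes of the log2 level minus the mean of the gene over all libraries. The score was 2.82 in control saline replicate 1 and -0.10, -0.07 and 0.35 in replicates 2 to 4. In cKO saline it was -0.65, -0.35, -0.44 and 0.19. Under cocaine it was 0.09, -0.30, -0.39 and -0.61 with the control label, and -0.27 and -0.28 with the cKO label. After the high library, the libraries with the highest score were thus control saline replicate 4, cKO saline replicate 4 and control cocaine replicate 1, of 3 different groups. The lowest were cKO saline replicate 1 and control cocaine replicate 4. Within the 13 libraries, control saline replicate 4 was among the highest 3 for 7 of 10 members, control cocaine replicate 1 for 6 and cKO saline replicate 4 for 5.

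Over all 14 libraries the correlation between members was positive in 45 of 45 pairs, with a median Pearson r of 0.88. Since control saline replicate 1 lies far from the rest for most members, the same was computed without it, a choice made after seeing the data. Over the 13 libraries 31 of 45 pairs were positive and the median r was 0.43. Of all pairs of tested genes 50.1% were positive and 14.9% lay above that median. The negative pairs all held Enpp2 or Prlr. Leaving out these 2 genes left 28 of 28 pairs positive by that choice, so the count and the median of these pairs are not separate results. Their r had a median of 0.63, from 0.23 for Kl with Slc4a5 to 0.88 for Kl with Aqp1. Of all pairs of tested genes 5.43% lay above that median. Enpp2 was most opposed to Otx2 (r = -0.77) and Prlr to the same gene (r = -0.54). The 14 or 13 libraries are the only points of these correlations, which are given as descriptions.

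The correlation of Ttr with each of the other 9 members was also tested over libraries by permutation (two-sided, 100000 resamples). The most closely related were Folr1 (r = 0.93, permutation p = 8e-05; rho = 0.73, permutation p = 0.0036), Kl (r = 0.93, permutation p = 3e-05; rho = 0.81, permutation p = 0.00062), Sostdc1 (r = 0.93, permutation p = 0.00016; rho = 0.83, permutation p = 0.00034) and Aqp1 (r = 0.92, permutation p = 2e-05; rho = 0.84, permutation p = 0.0003). After Benjamini-Hochberg adjustment over the 13470 tested genes other than Ttr, no gene reached an adjusted permutation p under 0.05 by r or by rho (0% of genes by either), which leaves out Kl, Folr1 and Aqp1 as below the filter. Sostdc1 and Otx2 had an adjusted permutation p of 0.138 by r and 0.215 by rho. Without the 2 libraries farthest from the median of Ttr (control saline replicate 1 and cKO saline replicate 1), r was 0.87 for Kl, 0.90 for Aqp1, 0.75 for Sostdc1, 0.67 for Folr1, 0.56 for Clic6, 0.55 for Otx2 and 0.38 for Slc4a5. It was 0.05 for Enpp2 and -0.15 for Prlr, so the positive r of these 2 genes over all libraries (0.79 and 0.62) rests on the libraries left out, and their rho was -0.03 and -0.11.

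Within the 8 saline libraries r with Ttr was positive for 9 of 9 members, and without control saline replicate 1 it was 0.91 for Kl, 0.93 for Folr1, 0.83 for Sostdc1, 0.82 for Aqp1 and -0.90 for Prlr. Within the 6 cocaine libraries r was positive for 7 of 9 members, highest for Otx2 (0.82), Aqp1 (0.81) and Sostdc1 (0.77), and negative for Enpp2 (-0.60) and Prlr (-0.46). The direction was thus the same in saline and in cocaine libraries for Kl, Aqp1, Sostdc1, Otx2, Folr1, Clic6 and Slc4a5.

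**Figure D3:**
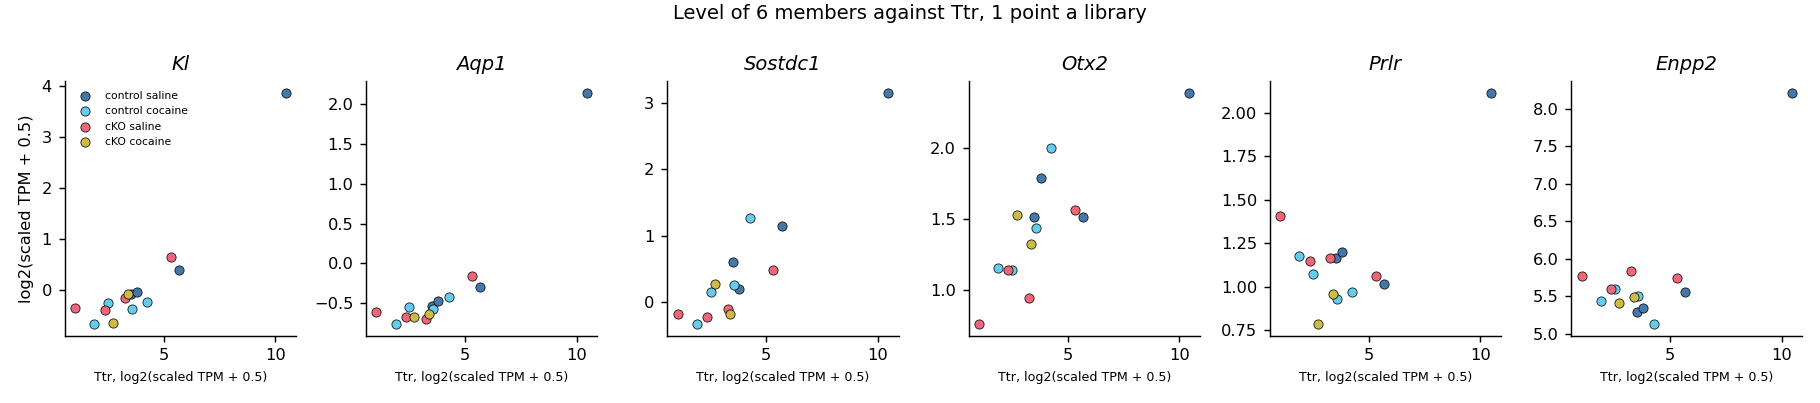
Level of Kl, Aqp1, Sostdc1, Otx2, Prlr and Enpp2 against that of Ttr, both as log2(scaled TPM + 0.5), with 1 point for each library coloured by group. Control saline replicate 1 is the point at the upper right of each panel, and among the other 13 points Kl, Aqp1, Sostdc1 and Otx2 are higher where Ttr is higher (r = 0.81, 0.82, 0.75 and 0.68) whereas Prlr and Enpp2 do not (r = -0.43 and -0.16).

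The same relation was asked of every tested gene in a limma fit of its log2 level on that of Ttr with the 4 groups as terms, so that only variation within groups counts. The slope is the change in log2 level for each log2 unit of Ttr. Of the 13470 genes other than Ttr, 0.00742% were called at an adjusted p under 0.05 with a positive slope. This was 1 gene, the homeobox gene Msx1 (slope 0.31 ± 0.04 SE, limma adjusted p = 0.0369). Of the 5 members tested none was called, whereas 4 of 5 had a positive slope with an unadjusted p under 0.05, as did 4.10% of all genes. The slopes were 0.36 for Sostdc1 (SE 0.05, limma adjusted p = 0.0717), 0.31 for Clic6 (SE 0.05, limma adjusted p = 0.0745), 0.29 for Enpp2, 0.14 for Otx2 and 0.08 for Prlr. Without control saline replicate 1 the slopes of Sostdc1 and Otx2 were 0.27 (SE 0.08) and 0.16 (SE 0.06), and those of Clic6, Enpp2 and Prlr were 0.12 (SE 0.05), 0.00 and -0.07 (SE 0.03). No gene was called then, and 3 of 5 members had a positive slope with an unadjusted p under 0.05.

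The genes whose level was most like the member score were taken as the 10 tested genes outside the list with the highest Pearson r over all 14 libraries. Among these were Msx1 (r = 0.97), Trpm3, Igf2, 5930403L14Rik, Tgfbr3, Slc2a12, Sft2d2 and Pcolce (r = 0.90 for the last). Msx1 was 6.77 scaled TPM in control saline replicate 1 and at most 1.20 elsewhere. Trpm3, a cation channel gene, was 26.4 against at most 17.1. Over the 13 other libraries r with the score remained 0.89 for Msx1 and 0.70 for Trpm3 but was 0.44 for Igf2 and 0.22 for Pcolce. The same ranking over the 13 libraries began with Cacna1e, Msx1 and Calhm5 (r = 0.90, 0.89 and 0.89) and shared only Msx1 with the other 10.

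Other cell types moved with the choroid genes among the 13 libraries. The score followed that of the further choroid epithelium genes (r = 0.88), the habenula genes (r = 0.76) and the ependymal and motile cilia genes (r = 0.72), and ran opposite to the oligodendrocyte genes (r = -0.72). It was less close to the genes of hippocampus (0.48), stroma (0.41), border macrophages (0.19), hypothalamus (0.11), the partners of the members (-0.15), thalamic neurons (-0.24) and vessels (-0.32). The summed habenula level ran from 51.2 to 74.8 scaled TPM for control saline, from 10.3 to 50.4 for cKO saline, from 9.41 to 173 for the control cocaine label and from 30.8 to 62.6 for the cKO cocaine label, and no habenula gene was at 0. The summed ependymal level was 95.5 to 101, 35.8 to 71.7, 38.8 to 85.9 and 85.6 to 111 in the same order, with Cfap126 at 0 in all libraries. The summed oligodendrocyte level was 1462 to 1744, 1801 to 2550, 1624 to 2539 and 1936 to 1964. Their part in the variation of the choroid genes was not tested.

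Single members differed in which of these lists they followed. Over the 13 libraries Sostdc1, Folr1 and Otx2 were close to the habenula score (r = 0.87, 0.85 and 0.82), and Kl was not (0.32). Folr1, Clic6 and Otx2 were close to the ependymal score (0.85, 0.74 and 0.71). Enpp2 was positively related to the oligodendrocyte score (0.70), and Clic6 and Otx2 ran opposite to it (-0.89 and -0.80). With Ttr as the covariate in the limma fit and without control saline replicate 1, 12 of 13 ependymal and 7 of 9 habenula genes had a positive slope with an unadjusted p under 0.05, and 1 of 13 and 0 of 9 did with all libraries. Over all genes without that library the share was 4.11%.

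**Figure D4:**
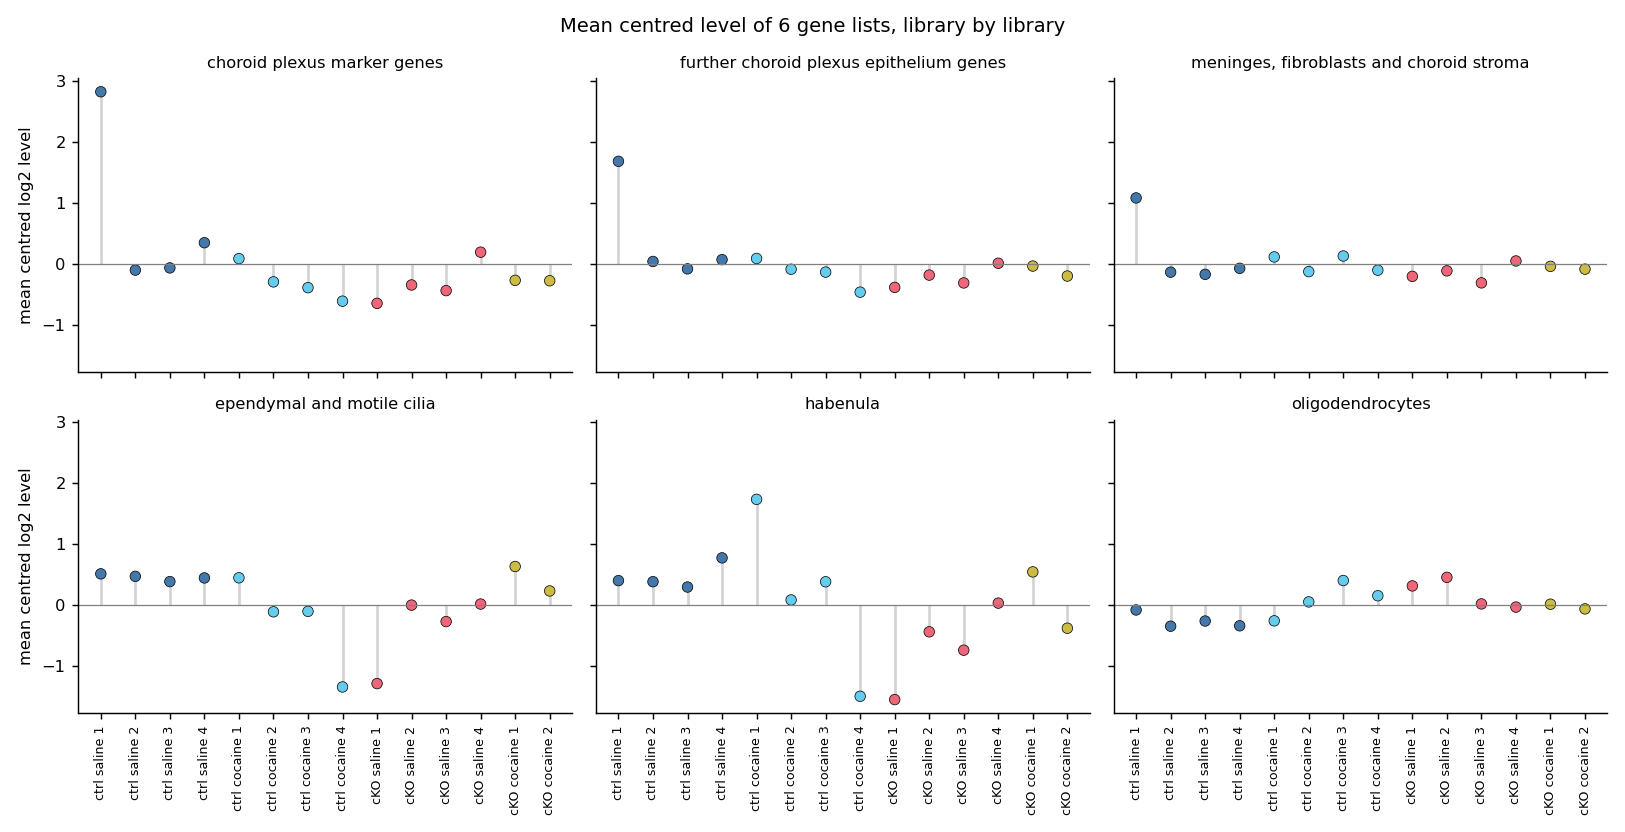
Mean centred log2 level of 6 gene lists in each of the 14 libraries, coloured by group, each gene having been centred on its mean over all libraries. Control saline replicate 1 is highest for the choroid plexus marker genes (2.82), the further choroid plexus epithelium genes (1.68) and the stromal genes (1.08), and not for the ependymal, habenula or oligodendrocyte genes, whose lowest ependymal and habenula values fall in control cocaine replicate 4 and cKO saline replicate 1.

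Whether the choroid genes changed with cocaine or genotype was tested by limma over all genes, with a call where the adjusted p was under 0.05 and the change 0.5 log2 units or more in either direction. In the libraries labelled control, cocaine against saline called 3.1% of the 13471 genes and 0 of the 6 tested members. All 6 were lower with cocaine in value, with a median log2 fold change of -0.81, whereas the median of all genes was 0.01. Sostdc1 reached 1 TPM in control saline replicates 1, 2 and 4 and control cocaine replicate 1 only. It so passed the filter through control saline, the higher group here, and its place among the 6 is not separate from the filter. Ttr had a log2 fold change of -2.80 (SE 1.32, limma adjusted p = 0.142), Clic6 of -1.28 (SE 0.46, limma adjusted p = 0.0615), Sostdc1 of -0.94, Enpp2 of -0.68, Otx2 of -0.36 and Prlr of -0.34. At an unadjusted p under 0.05, 1 of 6 members (Clic6) and 36.9% of all genes passed.

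These values depended on control saline replicate 1. Without it the median over the 6 members was -0.25, Ttr was -1.28 (SE 0.89, limma adjusted p = 0.339), Sostdc1 was -0.32, Otx2 -0.18, Prlr -0.10 and Enpp2 0.01. Clic6 was then the 1 of 6 members called, with a smaller change of -0.66 (SE 0.19, limma adjusted p = 0.0341), while 3.01% of all genes were called. Leaving that library out was a choice made after the member values in it were seen, here as in the other fits without it. The SE of Clic6 was 0.46 with it, so the call and its p depend on that choice and are not a separate test. Clic6 was also called when control saline replicate 2, control saline replicate 3 or control cocaine replicate 1 was left out (-1.51, -1.53 and -1.47), and its adjusted p ranged from 0.00798 to 0.345 over all alternatives. On TPM as deposited, without scaling, 4 of 6 members were called lower (Ttr, Clic6, Otx2 and Prlr). On that scale the median of all genes was itself lower by 0.34 log2 units in the cocaine libraries and 97.8% of the called genes were lower, as against 50.4% after scaling.

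Genes of the hypothalamic, ependymal, habenula and further choroid lists were mostly lower in value in the same comparison. Oligodendrocyte and thalamic neuron genes were not, with 0 of 9 and 2 of 9 lower (both medians 0.30). Of these, Mobp (0.61), Prkcd (0.75) and Lef1 (0.55) were called higher. Of the hypothalamic genes tested, 9 of 9 were lower with cocaine in value (median -1.45) and 4 were called: the neuropeptide genes Oxt (-7.89, limma adjusted p = 5.91e-05), Avp (-5.07), Trh (-1.72) and Gal (-1.45). Of the ependymal and motile cilia genes 13 of 13 were lower (median -0.75) and 1 was called, the dynein gene Dnah12 (-0.79, limma adjusted p = 0.0441). Of the habenula genes 7 of 9 were lower (median -0.38) and of the further choroid plexus epithelium genes 11 of 12 (median -0.45), with 0 called in either list. Without control saline replicate 1 the medians were -1.41 for the hypothalamic genes, with the same 4 called, -0.77 for the ependymal genes, with 0 called, -0.43 for the habenula genes and -0.20 for the further choroid genes. The part of these lists in the values of the members was not tested.

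**Figure D5:**
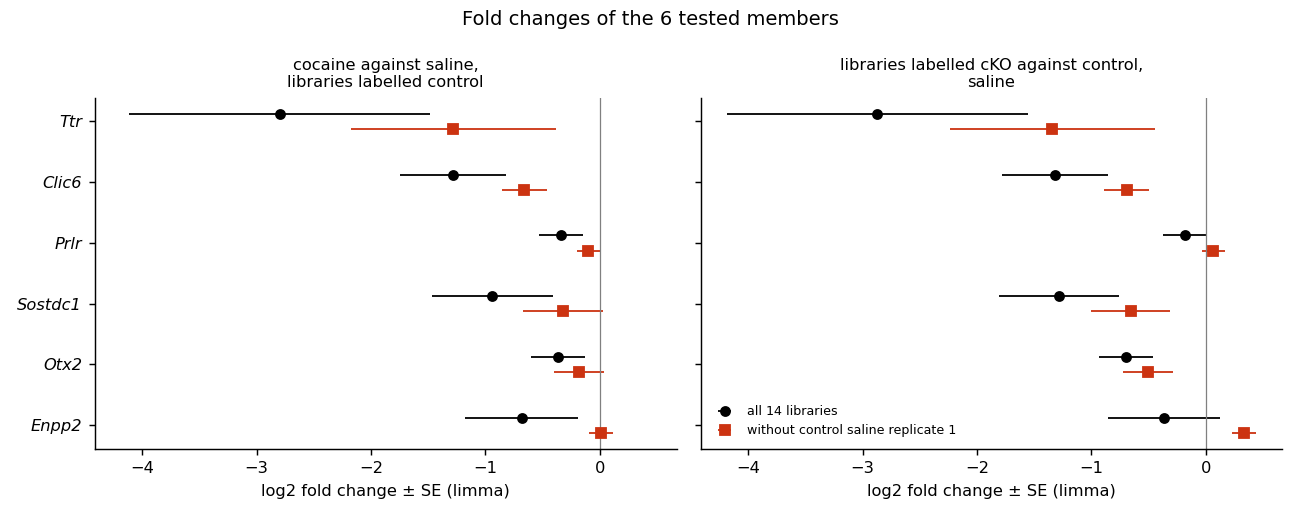
Log2 fold change of the 6 tested members with its standard error from limma, for cocaine against saline in the libraries labelled control and for cKO against control in saline, with all 14 libraries (circles) and without control saline replicate 1 (squares). Without that library Ttr moves from -2.80 to -1.28 and from -2.87 to -1.34, and Enpp2 from -0.68 to 0.01 and from -0.36 to 0.34.

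In saline, cKO against control called 0.0445% of genes and 0 of 6 members. The 6 members were all lower in cKO in value, with a median of -0.99 against 0.01 for all genes, and 4 of 6 had an unadjusted p under 0.05 (Ttr, Clic6, Sostdc1 and Otx2), as did 16.7% of all genes. Ttr was -2.87 (SE 1.32, limma adjusted p = 0.295), Clic6 -1.32 (SE 0.46, limma adjusted p = 0.182), Sostdc1 -1.28, Otx2 -0.70, Enpp2 -0.36 and Prlr -0.18. Sostdc1 reached 1 TPM in 4 libraries, all labelled control, and so passed the filter only through that label. Its place among the 4 of 6 is therefore not separate from the filter. This comparison shares the control saline libraries with the one before. Without replicate 1 of these, Ttr was -1.34, Clic6 -0.69, Sostdc1 -0.66 and Otx2 -0.50, while Prlr was 0.07 and Enpp2 0.34 (SE 0.10, limma adjusted p = 0.202), and 0 of 6 were called.

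Beside these values, 9 of 9 habenula genes (median -1.21), 13 of 13 ependymal and motile cilia genes (median -0.82) and 9 of 9 hypothalamic genes (median -0.94) were lower in cKO in value. Of these lists 1 gene was called, Oxt (-5.06, limma adjusted p = 0.0187). Leaving out control saline replicate 1 gave medians of -1.23, -0.79 and -0.89 and 0 genes called, with Oxt at -5.18 (limma adjusted p = 0.0532). With all libraries, 0 of 9 oligodendrocyte genes (median 0.46) and 3 of 9 thalamic neuron genes (median 0.16) were lower, with 0 called. The part of all these lists in the values of the members was likewise not tested.

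In the libraries labelled cKO, cocaine against saline called 3.07% of genes and 0 of 6 members. None of the members had an unadjusted p under 0.05, against 33.7% of all genes. The members had a median of 0.06, Ttr 0.06 (SE 1.61, limma adjusted p = 0.984) and Clic6 0.53 (SE 0.57, limma adjusted p = 0.553). Of the ependymal and motile cilia genes 0 of 13 were lower here (median 0.85) and 1 was called, Rsph1 (1.26, limma adjusted p = 0.0359). Of the habenula genes 0 of 9 were lower (median 0.71), of the hypothalamic genes 3 of 9 (median 0.17) and of the oligodendrocyte genes 7 of 9 (median -0.19), with 0 called. The part of these lists in the values of the members was not tested. Control saline replicate 1 enters this comparison through the spread shared by the 4 groups. Without it 0 of 6 members were called and 3 of 6 had an unadjusted p under 0.05, as did 34.1% of all genes. The 3 were Clic6 (0.53, SE 0.22), Prlr (-0.33, SE 0.12) and Enpp2 (-0.30, SE 0.12). The libraries labelled cKO against those labelled control after cocaine gave 0.0371% of genes and 0 of 6 members, again none at an unadjusted p under 0.05, with a median of -0.01. Ttr was -0.01 (SE 1.61) and Clic6 0.50 (SE 0.57) in that comparison. Without control saline replicate 1, 0 of 6 members were called there. Clic6 (0.50, SE 0.22) was then the 1 of 6 with an unadjusted p under 0.05, as were 12.2% of all genes. The standard errors of 1.61 for Ttr, from 2 libraries in the group labelled cKO cocaine and the shared spread, allow changes of several-fold in either direction. Without control saline replicate 1 they were 1.01.

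The cocaine effect in the libraries labelled cKO minus that in those labelled control called 0.854% of genes and 0 of 6 members. Ttr was at 2.86 (SE 2.08, limma adjusted p = 0.497) and Clic6 at 1.82 (SE 0.73, limma adjusted p = 0.206). Without control saline replicate 1 the same difference was 1.33 (SE 1.35) for Ttr and 1.19 (SE 0.29, limma adjusted p = 0.0743) for Clic6. Clic6 was the 1 of 6 members with an unadjusted p under 0.05 in both, as were 18.5% and 18.4% of all genes. The number of all genes called was 115 with that library and 60 without it. The mean of the cocaine effect over both genotype labels, whose value would be the same if the genotype labels of the cocaine libraries were exchanged, called 2.07% of genes and 0 of 6 members. Its value was -1.37 (SE 1.04, limma adjusted p = 0.345) for Ttr and -0.33 (SE 0.15, limma adjusted p = 0.115) for Prlr. Without control saline replicate 1 the values were -0.62 and -0.22. Prlr was the 1 of 6 members with an unadjusted p under 0.05, against 42.7% of all genes.

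Of the partners of the members, 25 were tested. None was called in cocaine against saline for the libraries labelled control, where their median was -0.03. Fxyd1, a regulator of the sodium pump, was called higher with cocaine in the libraries labelled cKO (0.73, SE 0.13, limma adjusted p = 0.00229) and in the mean over both labels (0.54, SE 0.08, limma adjusted p = 0.000361). Of the 12 further choroid plexus epithelium genes tested, Cox8b, a cytochrome oxidase subunit, was called lower in that mean (-1.11, SE 0.35, limma adjusted p = 0.0283), and none was called in the other 5 comparisons. Without control saline replicate 1, 11 of these genes were tested. Cox8b was then below the filter, 0 were called in the mean over both labels, and 1 was called higher with cocaine in the libraries labelled cKO, the sulfatase gene Sulf1 (0.55, SE 0.17, limma adjusted p = 0.0370).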

How the data were processed

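Bulk RNA-seq of mouse thalamus was analysed in 14 libraries of 15 samples (4 groups from the sample titles). Per the study's methods, the authors aligned paired reads with STAR 2.5.3a, quantified transcripts with salmon and deposited gene-level TPM values from tximport, of which 2 tables have a decimal comma. Values were divided by unweighted TMM factors (30% of log ratios and 5% of means trimmed), a pseudocount of 0.5 was added and log2 taken, so that fold changes of low genes are understated. The test was limma 3.58.1 in R 4.3.3 on genes reaching 1 TPM in 3 libraries or more (intensity trend, 4 group means, Benjamini-Hochberg), after a check on simulated data. Permutations and figures used Python 3.11.15. Named genes were the members, the 10 genes most like their score, and the called genes of each marker list, up to 6, or its first 2 tested genes; genes named for their level in control saline replicate 1 were chosen after their values were seen. Members and lists were chosen with earlier results of these data known. Depth per library is not given by TPM. Some genes that the rule names are not reported here.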

Additional observations from a re-analysis of the deposited data

Results flagged for a closer look

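In each group of 4 libraries, the gap of the highest or lowest library to its neighbour, as a share of the range of the group, was set against Dixon's 95% critical value for the 10 members and their score, on the log2 scale. Of 33 groups tested 11 stood out. The members and their score were read in the same libraries, so these are not separate tests, and the count cannot be set against a rate for chance. Of these, 8 lay in control saline and were due to replicate 1: Kl (0.882), Clic6 (0.872), Folr1 (0.859), Prlr (0.832), Aqp1 (0.913), Slc4a5 (0.884), Enpp2 (0.906) and the mean score (0.846). Ttr, Sostdc1 and Otx2 did not pass in control saline, where replicate 4 or 3 also lay above the others.

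In cKO saline, replicate 4 stood apart for Sostdc1 (0.834) and Aqp1 (0.843), at 0.904 and 0.398 scaled TPM against 0.429 and 0.155 in the next library. In control cocaine, replicate 1 stood apart for Slc4a5 (0.850), at 0.154 scaled TPM against 0.0642 in the next library.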

How the results depend on the processing

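The alternatives changed 1 choice at a time. In cKO against control in saline, in the cKO-labelled against control-labelled cocaine libraries and in the difference of the cocaine effects, 0 members were called under all 27, including no filter, with all 10 tested. TPM as deposited called 4 members in the control libraries, 1 in those labelled cKO and 2 in the mean over both labels, and a pseudocount of 0.1 called 1 in the control libraries. Leaving out each library in turn gave 0 to 1 members in the control libraries and 0 to 1 members following Ttr, the latter without cKO saline replicate 1. Members following Ttr numbered 2 with no group terms and 3 with Folr1 as the covariate. Genotype from the tags turned Otx2 to 0.10 (cKO against control, saline) and 0.035 (cocaine, control). Leaving out a library gave Enpp2 -0.64 to 0.34 in saline and -0.95 to 0.0087 with cocaine in the control libraries, and Prlr -0.30 to 0.067 in saline. The 2 near-zero Ttr values changed sign most. For cocaine in the libraries labelled cKO it was -0.29 on TPM as deposited, -0.32 with the replicate block, -1.23 with the tags, -0.80 in the libraries whose labels agree and -0.61 to 0.83 with a library left out. For the cocaine libraries labelled cKO against control it was 0.024 on TPM as deposited, 0.0033 with a pseudocount of 0.1 and -0.40 to 0.39 with a library left out, a lone sample being assumed to vary like the other groups. The cause was not tested.

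The replicate numbers did not pair the samples (mean r of deviations -0.01 over 18 same-numbered pairs and 0.00 over 54 others), and the block called 0 members in all 6 comparisons. Without control saline replicate 1 the difference in member score went from -1.05 to -0.37 for cocaine in the control libraries, from -1.06 to -0.37 for cKO against control in saline, from -0.51 to -0.17 for the mean over both labels and from 1.09 to 0.40 for the difference of the cocaine effects. TPM gives no read depth, so values under 1 TPM carry an unknown counting error.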

Other observations

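Control saline replicate 1 also held genes of tissues other than brain, named here after their values were seen. Bpifa2 and Smr3a, known from salivary gland, were 19.2 and 4.95 scaled TPM in it and at most 1.24 and 0.467 in the other 13 libraries. Dcpp1 and Car6, also salivary, were 1.15 and 1.07 and at most 0.0742 and 0.0653 elsewhere. Gh, the pituitary growth hormone gene, was 4.26 and at most 0.367. Of the 67 genes at least 1 log2 unit above every other library, 8 were choroid plexus marker genes, 13 further choroid epithelium genes, 12 short RNAs and 34 other genes. Their relation to the choroid genes was not tested.

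The hypothalamic peptide genes Oxt and Avp were 101 and 69.4 scaled TPM in the same library, and reached 182 in control saline replicate 3 and 73.6 in control saline replicate 2, so that here it was not the highest.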
